A study of Mus musculus with 12 samples.

Results

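The 38 genes described here are a selection of glycolytic enzyme, transporter and hypoxia response genes. They were picked by name from the 54532 genes of the deposited table, as the row of each symbol with the most counts. That rule uses no measured difference, but the 38 genes were chosen with earlier results of these data known. They comprise 3 glucose transporters, 3 hexokinases, 9 genes of upper and 6 of lower glycolysis, 4 genes of pyruvate fate and lactate export, 3 genes of the hypoxia-inducible factor (HIF) system and 10 hypoxia response genes. All 38 passed the filter on low counts and were among the 14286 genes tested.

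The libraries came from bone marrow-derived macrophages of mice aged 8 weeks, which are grown from marrow precursors in M-CSF, here at 10 ng/ml in DMEM with 10% serum and 1% penicillin/streptomycin. The KL libraries are Lyz2-Cre-Hdac3f/f cells given 500 ng/ml LPS, a bacterial membrane component that activates macrophages, for 4 h. The L libraries are Hdac3f/f cells given the same LPS, the KC libraries are Lyz2-Cre-Hdac3f/f cells kept 4 h without LPS, and the C libraries are Hdac3f/f cells kept 4 h without LPS. Each group holds 3 libraries. All 4 groups carry the floxed gene of the histone deacetylase Hdac3. The genotypes differ in the Cre recombinase, which is driven by the Lyz2 promoter and acts in myeloid cells. The labels do not tell whether replicates came from separate mice, so each p-value measures the spread between these libraries, which may be technical.

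Glycolysis splits glucose into pyruvate in the cytosol, and lactate dehydrogenase and monocarboxylate transporters then turn pyruvate into lactate and export it. Activated macrophages are known for a strong glycolytic flux. HIF, a transcription factor that prolyl hydroxylases mark for destruction while oxygen is present, binds a short core, ACGTG or GCGTG, in the regulatory DNA of many glycolytic genes, and in macrophages it is also induced by LPS.

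Promoter windows are shown for the 3 genes whose LPS response, as the mean log2 fold change of both genotypes, was largest among those whose window holds the core, because the response of these genes leads the results. Each window runs 5′ to 3′ on the gene's own strand, from 250 bases before to 50 bases after the RefSeq start site (GRCm38.p6), and the capitals mark every ACGTG or GCGTG core on either strand (CACGT or CACGC where the core lies on the opposite strand).
Slc2a6 (chr2:27027949-27028248, minus strand): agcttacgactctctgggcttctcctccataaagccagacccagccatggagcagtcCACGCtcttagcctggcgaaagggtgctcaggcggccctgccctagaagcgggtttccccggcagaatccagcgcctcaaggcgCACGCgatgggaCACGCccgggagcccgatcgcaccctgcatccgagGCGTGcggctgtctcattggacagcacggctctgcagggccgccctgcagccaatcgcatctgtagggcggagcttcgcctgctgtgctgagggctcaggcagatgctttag
Slc2a1 (chr4:119108495-119108794, plus strand): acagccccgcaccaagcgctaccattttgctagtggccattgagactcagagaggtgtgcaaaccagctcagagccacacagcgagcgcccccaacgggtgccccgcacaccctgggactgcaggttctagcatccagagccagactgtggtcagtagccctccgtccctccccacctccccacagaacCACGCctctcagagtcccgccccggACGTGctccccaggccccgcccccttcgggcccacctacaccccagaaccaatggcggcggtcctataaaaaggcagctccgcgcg
Slc16a3 (chr11:120948817-120949116, plus strand): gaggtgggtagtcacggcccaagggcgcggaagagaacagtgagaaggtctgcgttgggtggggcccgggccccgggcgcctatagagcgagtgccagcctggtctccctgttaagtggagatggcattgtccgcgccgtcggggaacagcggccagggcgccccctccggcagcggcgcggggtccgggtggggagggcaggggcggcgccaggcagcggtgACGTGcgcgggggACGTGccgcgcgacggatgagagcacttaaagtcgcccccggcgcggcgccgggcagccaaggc
The Slc2a6 window holds 4 cores, of the GCGTG type, with first bases at -193, -109, -97 and -62 from the start site. The Slc2a1 window holds 2, at -61 and -36, and the Slc16a3 window holds 2 of the ACGTG type, at -27 and -14. At least 1 window was found for 35 of the 38 genes, and a gene was counted if any of its windows held a core. Of the 35, 32 (91.4%) held at least 1 core, as did 46.7% of the 27025 genes of the promoter table and 66.2% of the 10210 tested genes with an entry. Counted by window, 41 of the 51 windows of these genes (80.4%) held a core, against 43.8% of all 32851 windows. No share by window was counted for the tested genes alone. The 38 genes were picked as glycolysis and hypoxia response genes, so their share is not independent of that choice. A gene with more windows also has more places for a match. The E-box CACGTG, the site of MYC-type factors, contains ACGTG and is counted in both; it was in 6 of the 35 genes with a window (17.1%), against 8.09% of the genes of the promoter table and 11.5% of the tested genes with an entry. A match describes these letters in this window and is not a binding site.

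The libraries held between 16553432 and 18706990 counts, so a count of 0 allows 3 counts, or up to 0.181 CPM of the unscaled total. The 38 genes took 1.46% to 1.53% of all counts in KL and 1.33% to 1.47% in L, against 0.820% to 0.847% in KC and 0.789% to 0.897% in C. All 8 macrophage markers tested (among them Csf1r, Adgre1 and Cd68) were present in every group. Of the 8, 1 was higher and 1 lower in KC than C (edgeR adjusted p under 0.05), against 5.12% and 6.66% of all tested genes. Between LPS-treated groups 3 were higher and 3 lower in KL than L, against 15.7% and 16.9%. Hdac3 itself, counted over the whole gene, lay between 34.4 and 38.9 CPM in KL, 38.7 and 40.7 in L, 33.1 and 36.6 in KC and 36.3 and 39.7 in C, and did not pass the test (edgeR adjusted p = 0.352 for KC over C and 0.473 for KL over L), so these counts do not check the deletion of the floxed exons. Lyz2 stood at 31.0 CPM in KC1, against 5181 and 5637 CPM in KC2 and KC3. It ran from 6090.0 to 7727.7 CPM in KL, 10511.0 to 12351.0 in L and 9318.2 to 11990.1 in C. KC1 thus stands far apart from the other KC libraries in Lyz2. The labels do not give the number of Cre alleles behind each library, and whether KC1 differs in that number was not tested. Calls lost without KC1 are named with the results. A fall in a gene's counts here can come from fewer cells of a type or from less RNA per cell, which cannot be told apart.

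The first question is how far LPS changed these genes in each genotype. In Lyz2-Cre-Hdac3f/f cells, LPS raised 28 of the 38 genes and lowered 4 (edgeR quasi-likelihood test, adjusted p under 0.05 over all tested genes), where 25.2% of all tested genes were called higher and 27.7% lower. In Hdac3f/f cells it raised 30 and lowered 5, against 28.0% and 32.1% of all tested genes. The median log2 fold change of the 38 genes was 1.15 in Lyz2-Cre-Hdac3f/f cells and 1.30 in Hdac3f/f cells, and that of all tested genes was -0.08 in both. With library totals as the only scaling, the median of all genes moved to -0.46 in Lyz2-Cre-Hdac3f/f and -0.72 in Hdac3f/f cells, and the counts of the 38 genes became 24 higher and 6 lower, and 22 higher and 7 lower. Calls of a rise lost with that scaling were those of Slc2a3, Gpi1, Egln3 and P4ha1 in Lyz2-Cre-Hdac3f/f cells, and of Pkm, Slc16a1, Pdk1, Egln1, Egln3, Vegfa, P4ha2 and Ankrd37 in Hdac3f/f cells.

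**Figure D1:**
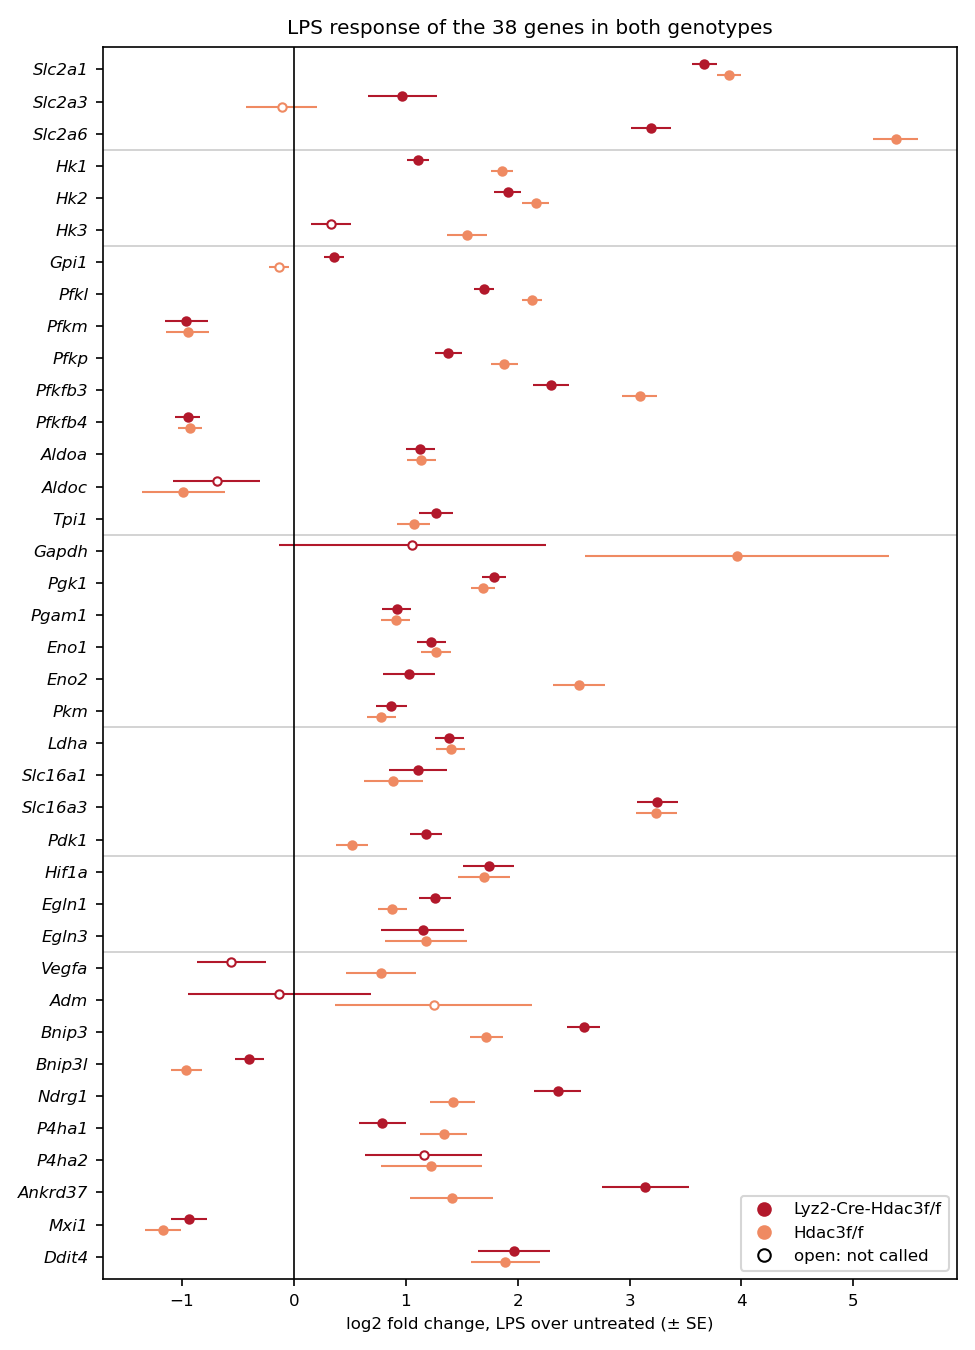
Log2 fold change of LPS over untreated cells (x axis, ± SE from the edgeR fit) for each of the 38 genes (y axis, grouped by role) in Lyz2-Cre-Hdac3f/f and Hdac3f/f cells; open circles did not pass the test. Most points lie right of 0 in both genotypes, Slc2a6 is farthest right in Hdac3f/f cells at 5.38, and Pfkm, Pfkfb4, Aldoc, Bnip3l and Mxi1 lie left of 0 in both.

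Among the glucose transporters, Slc2a1, the basal transporter GLUT1, had 443.3, 464.8 and 457.6 CPM in KL and 496.5, 588.4 and 610.8 in L, against 37.9, 36.4 and 33.3 in KC and 36.3, 36.8 and 41.1 in C. Every LPS library lay above every untreated one. The log2 fold change was 3.67 ± 0.11 (SE) in Lyz2-Cre-Hdac3f/f cells (edgeR adjusted p = 1.1e-10) and 3.89 ± 0.11 in Hdac3f/f cells (adjusted p = 3.54e-11), and the responses did not differ between genotypes by the test (difference -0.23 ± 0.14, adjusted p = 0.386). Slc2a6, the transporter GLUT6, had 624.7, 655.1 and 765.8 CPM in KL, 1120.5, 1806.0 and 1482.7 in L, 82.2, 63.3 and 78.6 in KC and 30.3, 38.4 and 37.0 in C. The 4 groups did not overlap, with KL below L and KC above C. LPS raised it 9.13-fold in Lyz2-Cre-Hdac3f/f cells and 41.8-fold in Hdac3f/f cells. Slc2a3, the high-affinity transporter GLUT3, is expressed at a low level: it had 33.9, 17.3 and 30.8 CPM in KL, 10.2, 9.90 and 11.5 in L, 21.9, 9.39 and 10.6 in KC and 8.89, 13.4 and 11.9 in C. KL lay above L without overlap, while the KL and KC ranges overlapped. Its LPS log2 fold change was 0.97 ± 0.31 in Lyz2-Cre-Hdac3f/f cells (adjusted p = 0.0174) and -0.11 ± 0.32 in Hdac3f/f cells (adjusted p = 0.79). The call in Lyz2-Cre-Hdac3f/f cells was lost without KC2 (0.75, adjusted p = 0.076), KC3 (0.81, 0.0719) or KL1 (0.82, 0.0634), and the difference between the responses did not pass (1.08 ± 0.44, adjusted p = 0.162).

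Hexokinases trap glucose in the cell by phosphorylating it. Hk2, the inducible isoform bound to mitochondria, had 267.5, 260.2 and 244.0 CPM in KL, 264.8, 216.1 and 285.8 in L, 76.4, 65.9 and 63.2 in KC and 56.8, 57.0 and 57.8 in C. It rose in both genotypes, by 1.91 ± 0.12 in Lyz2-Cre-Hdac3f/f and 2.16 ± 0.12 in Hdac3f/f cells on the log2 scale (adjusted p = 2.39e-08 and 5.45e-09), and KL and L overlapped. Hk1, the broadly expressed isoform, had 370.8, 366.5 and 398.5 CPM in KL, 471.4, 556.0 and 593.6 in L, 185.9, 171.3 and 169.0 in KC and 143.4, 148.7 and 153.5 in C. Hk3, the isoform typical of myeloid cells, had 461.0, 469.7 and 625.0 CPM in KL, 816.9, 1181.9 and 1240.1 in L, 415.3, 430.9 and 387.7 in KC and 301.2, 382.9 and 424.4 in C. For both genes KL lay below L without overlap. Hk3 rose in Hdac3f/f cells (1.55 ± 0.18, adjusted p = 7.14e-06), and its value in Lyz2-Cre-Hdac3f/f cells did not pass (0.33 ± 0.18, adjusted p = 0.127).

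Of the 9 genes of upper glycolysis, from glucose phosphate to triose phosphate, LPS raised 6 and lowered 2 in Lyz2-Cre-Hdac3f/f cells and raised 5 and lowered 3 in Hdac3f/f cells. Pfkl, the liver-type phosphofructokinase, had 366.6, 354.1 and 326.9 CPM in KL and 370.5, 396.9 and 380.9 in L, against 114.6, 103.8 and 105.1 in KC and 84.2, 84.3 and 93.2 in C. Its log2 fold change with LPS was 1.70 ± 0.09 in Lyz2-Cre-Hdac3f/f and 2.13 ± 0.09 in Hdac3f/f cells (adjusted p = 8.15e-09 and 7.95e-10). Pfkfb3, which makes the sugar phosphate that activates phosphofructokinase, had 600.6, 810.4 and 699.3 CPM in KL and 844.3, 619.8 and 920.8 in L, against 136.0, 149.3 and 143.7 in KC and 105.7, 85.9 and 88.1 in C. LPS raised Pfkfb3 4.92-fold in Lyz2-Cre-Hdac3f/f and 8.53-fold in Hdac3f/f cells, while its paralog Pfkfb4 fell, with log2 fold changes of -0.95 ± 0.11 in Lyz2-Cre-Hdac3f/f and -0.93 ± 0.11 in Hdac3f/f cells. Pfkp, the platelet-type phosphofructokinase, rose by 1.38 in Lyz2-Cre-Hdac3f/f and 1.88 in Hdac3f/f cells (log2), and the muscle type Pfkm fell, at -0.96 in Lyz2-Cre-Hdac3f/f and -0.95 in Hdac3f/f cells. Both are uncertain in level: Pfkm had 1633 counts in all and overlaps Senp1, which had 5111, and Pfkp overlaps Pitrm1, which had 29.0% of the counts of Pfkp.

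Gpi1, the isomerase that follows hexokinase, had 567.1, 535.4 and 514.4 CPM in KL, 469.2, 505.6 and 507.5 in L, 431.0, 422.9 and 405.5 in KC and 488.0, 551.3 and 586.9 in C. KC lay below C, and KL lay above L. LPS raised it in Lyz2-Cre-Hdac3f/f cells (0.36 ± 0.09, adjusted p = 0.00603), and it did not pass in Hdac3f/f cells (-0.13 ± 0.09, adjusted p = 0.241). With library totals as the only scaling the value of Gpi1 in Lyz2-Cre-Hdac3f/f cells was -0.03 (adjusted p = 0.775), and the call was also lost without KL1, L2 and KC3, 3 libraries that stand apart in Gapdh (given with that gene). Aldoa and Tpi1, the main aldolase and the triose phosphate isomerase, rose in both genotypes, by 1.13 and 1.27 in Lyz2-Cre-Hdac3f/f cells and by 1.14 and 1.07 in Hdac3f/f cells on the log2 scale. Aldoc, the brain-type aldolase, had 3.26, 1.16 and 1.51 CPM in KL, 2.57, 3.27 and 5.30 in L, 3.26, 4.05 and 2.24 in KC and 5.73, 7.40 and 9.05 in C. C was the highest group, and its libraries lay above all others. The LPS call in Hdac3f/f cells (-0.99 ± 0.37, adjusted p = 0.0322) was lost without C2, C3, L1 or L2 (adjusted p = 0.0655, 0.106, 0.115 and 0.0959, with log2 fold changes between -0.99 and -0.77).

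In lower glycolysis, which makes ATP and pyruvate from triose phosphates, 5 of 6 genes rose in Lyz2-Cre-Hdac3f/f cells and all 6 in Hdac3f/f cells. Pgk1, the phosphoglycerate kinase, had 885.2, 812.9 and 806.9 CPM in KL and 880.7, 699.9 and 882.5 in L, against 246.5, 241.4 and 238.5 in KC and 238.9, 243.9 and 277.9 in C. Every LPS library lay above every untreated one, and the response was 1.79 ± 0.11 in Lyz2-Cre-Hdac3f/f and 1.69 ± 0.11 in Hdac3f/f cells, with a difference of 0.09 ± 0.15 (adjusted p = 0.784). Pgam1, Eno1 and Pkm, the mutase, enolase and pyruvate kinase of the pathway, rose by 0.92, 1.23 and 0.87 in Lyz2-Cre-Hdac3f/f cells and by 0.91, 1.27 and 0.78 in Hdac3f/f cells on the log2 scale. Pkm lost its call in Hdac3f/f cells with library totals as the only scaling (0.14, adjusted p = 0.167). Eno2, the neuronal enolase, is scarce and had 7.85, 7.40 and 6.58 CPM in KL, 20.3, 21.4 and 15 in L, 3.30, 4.63 and 2.69 in KC and 2.60, 4.19 and 2.91 in C. The L libraries stood above all others. Its log2 fold change was 1.03 ± 0.23 in Lyz2-Cre-Hdac3f/f cells (adjusted p = 0.00222) and 2.55 ± 0.23 in Hdac3f/f cells (adjusted p = 8.53e-07).

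Gapdh, the dehydrogenase often used as a reference gene, behaved unlike its neighbours and its counts are uncertain. It had 176.4, 18 and 16.0 CPM in KL, 22.0, 200.6 and 21.3 in L, 4.91, 5.12 and 91.2 in KC and 5.25, 5.06 and 5.37 in C. In KL1, L2 and KC3 it stood several-fold above the other libraries of the group. The row holds 9053 counts in all 12 libraries, against 536370 for Pkm, and overlaps Iffo1, which had 93.4% of that number. The LPS log2 fold change was 1.06 ± 1.19 in Lyz2-Cre-Hdac3f/f cells (adjusted p = 0.478) and 3.96 ± 1.36 in Hdac3f/f cells (adjusted p = 0.023). Without L2 the value for Gapdh in Hdac3f/f cells was 2.05 (adjusted p = 0.194), and without C1, C2 or C3 the adjusted p was 0.0563, 0.0639 and 0.0603. With KL1, L2 and KC3 all left out, an alternative chosen after seeing the data, Gapdh rose by 1.80 in Lyz2-Cre-Hdac3f/f cells (adjusted p = 1.53e-05) and by 2.05 in Hdac3f/f cells (adjusted p = 1.54e-06). The part of these 3 libraries in other results was tested by leaving them out, as given beside those results.

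All 4 genes of pyruvate fate and lactate export rose in both genotypes. Slc16a3, the lactate exporter MCT4, had 818.3, 809.2 and 808.2 CPM in KL and 721.5, 937.9 and 894.2 in L, against 107.4, 69.7 and 78.1 in KC and 75.6, 91.6 and 103.3 in C. The genotypes overlapped with and without LPS, and the responses of 3.25 ± 0.18 in Lyz2-Cre-Hdac3f/f and 3.24 ± 0.18 in Hdac3f/f cells differed by 0.02 ± 0.23 (adjusted p = 0.98). Ldha, the lactate dehydrogenase subunit, rose by 1.39 ± 0.13 in Lyz2-Cre-Hdac3f/f and 1.40 ± 0.13 in Hdac3f/f cells, and Slc16a1, the transporter MCT1, by 1.11 ± 0.26 in Lyz2-Cre-Hdac3f/f and 0.89 ± 0.26 in Hdac3f/f cells. Slc16a1 lost its call in Hdac3f/f cells without L3 (0.51, adjusted p = 0.0779). Pdk1, the kinase that shuts pyruvate dehydrogenase, had 56.0, 51.9 and 47.9 CPM in KL, 44.8, 30.1 and 41.9 in L, 24.0, 21.4 and 23.3 in KC and 26.9, 26.1 and 28.4 in C. The KL libraries were the highest and the L libraries came next without overlap. Pdk1 rose by 1.18 ± 0.14 in Lyz2-Cre-Hdac3f/f cells and by 0.52 ± 0.14 in Hdac3f/f cells, and the difference of 0.66 ± 0.19 did not pass (adjusted p = 0.0544). This difference passed with library totals (0.90, adjusted p = 0.0285), without a filter (0.68, 0.0353), with the DESeq2 test (0.63, 0.0205), with a replicate block (0.67, 0.0379) and without L1 (0.79, 0.0164) or L2 (0.53, 0.0454). With library totals as the only scaling, Pdk1 in Hdac3f/f cells stood at -0.10.

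The oxygen-sensing members rose with LPS in both genotypes. Hif1a, the oxygen-regulated subunit of HIF, had 262.6, 268.9 and 235.6 CPM in KL, 188.1, 108.6 and 171.9 in L, 88.1, 65.6 and 75.9 in KC and 66.1, 38.5 and 39.4 in C. KL lay above L without overlap, and KC and C overlapped. The response was 1.74 ± 0.23 in Lyz2-Cre-Hdac3f/f and 1.70 ± 0.23 in Hdac3f/f cells (adjusted p = 3.17e-05 and 2.98e-05), with a difference of 0.04 ± 0.32 (adjusted p = 0.961). Egln1 and Egln3, the prolyl hydroxylases that mark HIF for destruction, rose by 1.26 and 1.15 in Lyz2-Cre-Hdac3f/f cells and by 0.88 and 1.18 in Hdac3f/f cells (log2), where Egln1 stood at 0.25 with library totals as the only scaling (adjusted p = 0.0693). Egln3, at 1.49 to 8.56 CPM, lost its call in Hdac3f/f cells without C3 (0.96, adjusted p = 0.0535) or L3 (0.81, 0.0871), and in Lyz2-Cre-Hdac3f/f cells without KC3 (0.95, 0.075) or KL1 (0.85, 0.0929).

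Of the 10 hypoxia response genes, 5 rose and 2 fell with LPS in Lyz2-Cre-Hdac3f/f cells, and 7 rose and 2 fell in Hdac3f/f cells. Bnip3, a mitophagy receptor, had 61.0, 58.2 and 52.1 CPM in KL, 46.9, 29.6 and 42.1 in L, 9.86, 9.30 and 9.35 in KC and 12.6, 11.8 and 11.7 in C. KL was the highest group and KC the lowest, with no overlap between any groups. Its paralog Bnip3l had 43.1, 41.0 and 38.6 CPM in KL, 28.3, 19.0 and 25.3 in L, 58.2, 55.1 and 48.4 in KC and 47.5, 49.1 and 44.5 in C, and fell with LPS, at -0.40 ± 0.13 in Lyz2-Cre-Hdac3f/f cells and -0.96 ± 0.14 in Hdac3f/f cells. The fall of Bnip3l in Lyz2-Cre-Hdac3f/f cells lost its call without KC1, KC2, KL1, KL2 or KL3 (log2 fold changes between -0.41 and -0.33, adjusted p between 0.0508 and 0.101), and a pseudogene row, Bnip3l-ps, held 11.1% of its counts. The difference between the Bnip3l responses did not pass (0.56 ± 0.19, adjusted p = 0.0927), but did with library totals, with the DESeq2 test and without L1. Ndrg1, a stress-induced gene, rose by 2.36 ± 0.21 in Lyz2-Cre-Hdac3f/f and 1.42 ± 0.20 in Hdac3f/f cells. The difference for Ndrg1 did not pass (0.94 ± 0.29, adjusted p = 0.0638), but did with library totals, without a filter, with the DESeq2 test and without C1. Mxi1, a MYC antagonist, fell, at -0.94 in Lyz2-Cre-Hdac3f/f and -1.17 in Hdac3f/f cells (log2).

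Ddit4, the mTORC1 inhibitor REDD1, had 16.5, 19.2 and 30.0 CPM in KL and 22.4, 33.2 and 44.7 in L, against 4.62, 5.56 and 6.52 in KC and 13.2, 7.01 and 6.75 in C. Every LPS library lay above the untreated ones of its genotype, and the responses of 1.97 ± 0.32 in Lyz2-Cre-Hdac3f/f and 1.89 ± 0.31 in Hdac3f/f cells differed by 0.08 ± 0.44 (adjusted p = 0.938). Ankrd37, a HIF target, is close to the detection limit, with 2.41, 2.20 and 1.44 CPM in KL, 1.60, 0.857 and 1.23 in L, 0.194, 0.178 and 0.298 in KC and 0.347, 0.535 and 0.511 in C. LPS raised it by 3.14 ± 0.39 in Lyz2-Cre-Hdac3f/f and 1.41 ± 0.37 in Hdac3f/f cells (adjusted p = 1.91e-05 and 0.00521), and the difference did not pass (1.74 ± 0.55, adjusted p = 0.0717). The Ankrd37 row holds 195 counts and overlaps Ufsp2, which holds 4363. Vegfa, the vascular growth factor, ran from 62.2 to 97.6 CPM in KL, 63.3 to 101.7 in L, 83.5 to 169.6 in KC and 33.9 to 68.1 in C. Its rise in Hdac3f/f cells (0.78 ± 0.31, adjusted p = 0.0438) was lost without C2, C3, L1, L3, KC3 or KL3 (0.55 to 0.86, adjusted p between 0.0502 and 0.182), and it did not pass in Lyz2-Cre-Hdac3f/f cells (adjusted p = 0.144). The difference between the Vegfa responses did not pass (-1.34 ± 0.43, adjusted p = 0.0807), but did without a filter, with the DESeq2 test and without C1. P4ha1, a collagen prolyl hydroxylase subunit, rose by 0.79 in Lyz2-Cre-Hdac3f/f and 1.34 in Hdac3f/f cells (log2), and the call of P4ha1 in Lyz2-Cre-Hdac3f/f cells was lost with library totals (0.41, adjusted p = 0.183). Adm, which encodes the peptide adrenomedullin, lay between 0.292 and 7.38 CPM over the 12 libraries and did not pass in any comparison (edgeR adjusted p between 0.24 and 0.947).

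The second question is whether the genotypes differ. Without LPS, 4 of the 38 genes were higher and 4 lower in KC than in C, against 5.12% and 6.66% of all tested genes. With LPS, 5 were higher and 7 lower in KL than in L, against 15.7% and 16.9%. With LPS the counts are close to the share of all genes. The 2 comparisons use different libraries, while each shares its libraries with the LPS comparisons above. The median of the 38 genes was -0.05 without and -0.07 with LPS, and that of all tested genes 0.03 and 0.02. The count of genes higher in KL became 13, and lower 6, with library totals as the only scaling, which moved the median of all genes to 0.29.

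Markers of other cell types differed between the genotypes as well. Of 7 mast cell and basophil markers tested, 6 were called higher in KC than C, and 4 higher and 1 lower in KL than L; the sum of the 7 was 187.3 to 328.6 CPM in KL, 192.3 to 272.4 in L, 141.8 to 225.2 in KC and 90.6 to 121.4 in C. Of 7 lymphocyte markers tested, 3 were higher and 1 lower in KC than C, and 4 higher and 1 lower in KL than L, while the sum over all 10 listed was 67.2 to 77.3 CPM in KL, 95.7 to 128.7 in L, 112.8 to 175.8 in KC and 197.6 to 344.4 in C, with Ms4a1 at 0 in L. Of 6 endothelial markers, 2 were higher in KC than C and 1 lower in KL than L, and their sum was 114.6 to 149.7 CPM in KL, 115.6 to 134.3 in L, 151.3 to 209.9 in KC and 63.9 to 117.4 in C. Of 8 neutrophil markers tested, 1 was higher and 1 lower in KC than C and 1 higher in KL than L; the sum over 10 was 91.6 to 268.3 CPM in KL, 89.4 to 175.3 in L, 126.4 to 180.2 in KC and 180.7 to 297.4 in C, with Ly6g and Retnlg at 0 in L. The 8 erythroid markers summed to at most 11.3 CPM in any library. The part of these markers in the genotype results was not tested.

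Without LPS, Slc2a6 was higher in KC (1.09 ± 0.17, adjusted p = 0.00249), and so were Pfkfb3 (0.62 ± 0.15, adjusted p = 0.0224), Pfkl (0.31 ± 0.09, adjusted p = 0.0424) and Vegfa (1.39 ± 0.31, adjusted p = 0.0147). Ndrg1 was lower in KC (-1.80 ± 0.21, adjusted p = 0.000318), at 12, 12.5 and 7.91 CPM against 26.2, 42.1 and 45.2 in C. P4ha2 (-2.11 ± 0.50, adjusted p = 0.0187), Aldoc (-1.21 ± 0.36, adjusted p = 0.0474) and Gpi1 (-0.37 ± 0.09, adjusted p = 0.0257) were lower in KC. The calls of Slc2a6 and Ndrg1 held with any library left out. The call of Vegfa was lost without C2, C3 or KC1 (adjusted p between 0.0553 and 0.0648), that of Pfkfb3 without C2, C3, KC2 or KC3 (between 0.0657 and 0.0973), that of Gpi1 without C2, C3 or any KC library (between 0.0658 and 0.106) and that of Aldoc without C2, C3, L2, KL3 or any KC library (between 0.0512 and 0.167). The call of Pfkl was lost without any C, KC or KL library or L3 (between 0.0632 and 0.17). Without KL1, L2 and KC3, Slc2a6 (1.02), Pfkfb3 (0.59) and Ndrg1 (-1.65) kept their calls and the other 5 did not (adjusted p between 0.0518 and 0.127). Hif1a was not called without LPS (0.67 ± 0.23, adjusted p = 0.0737), but was called higher in KC without a filter (0.64, adjusted p = 0.00187), with the DESeq2 test (0.65, 0.0334), with a replicate block (0.70, 0.0254) and without C1 (0.97, 0.00868) or L2 (0.65, 0.04). A replicate block also ended the calls of Pfkl (adjusted p = 0.0541) and Aldoc (0.0663) in KC over C.

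With LPS, Slc2a6 (-1.11 ± 0.17, adjusted p = 0.000666), Eno2 (-1.38 ± 0.22, adjusted p = 0.000928), Hk3 (-1.06 ± 0.18, adjusted p = 0.0011), Hk1 (-0.51 ± 0.10, adjusted p = 0.00261) and Ndrg1 (-0.87 ± 0.20, adjusted p = 0.00681) were lower in KL than in L. P4ha2 (-2.19 ± 0.48, adjusted p = 0.00524) and Slc2a1 (-0.31 ± 0.10, adjusted p = 0.0317) were lower too. Higher in KL were Slc2a3 (1.37 ± 0.32, adjusted p = 0.00688), Bnip3l (0.76 ± 0.14, adjusted p = 0.00177), Bnip3 (0.53 ± 0.14, adjusted p = 0.015), Hif1a (0.71 ± 0.22, adjusted p = 0.0289) and Pdk1 (0.41 ± 0.14, adjusted p = 0.0339). The 9 genes of upper glycolysis did not pass (adjusted p between 0.0939 and 0.872). The call of Slc2a1 was lost without L2, L3 or any KL library (between -0.33 and -0.25, adjusted p between 0.0695 and 0.133), and also without a filter (-0.32, 0.0786), with only KL and L in the fit (-0.30, 0.0854) and with library totals, where the value was -0.04 (adjusted p = 0.718). Hif1a lost its call without L2 (0.51, adjusted p = 0.102), KL1 (0.70, 0.0737) or KL2 (0.67, 0.0818), Pdk1 without L2 (0.26, 0.0961), KL1 (0.36, 0.115) or KL2 (0.42, 0.0824), and Bnip3 without KL1 (0.49, 0.0581). Without KL1, L2 and KC3, Slc2a6, Hk3 and Eno2 remained lower and Bnip3l higher (-0.87, -0.91, -1.33 and 0.57), while Hk1 (-0.47, adjusted p = 0.0606), Ndrg1 (-0.81, 0.0535), P4ha2 (-2.29, 0.0663) and Slc2a3 (1.15, 0.103) no longer passed, nor did Slc2a1, Bnip3, Hif1a and Pdk1 (adjusted p between 0.149 and 0.307).

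**Figure D2:**
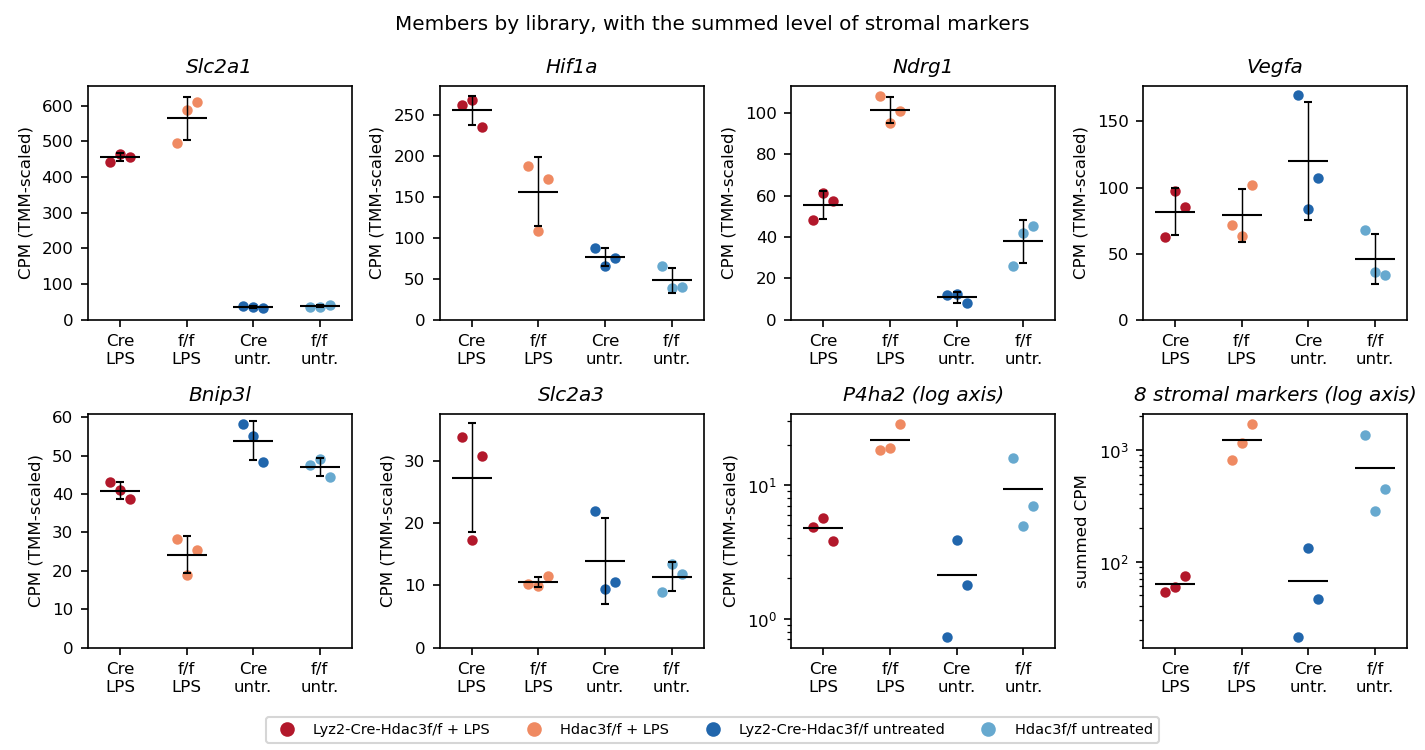
CPM of 7 genes in each library (y axis; points are the 3 libraries of a group, the line is the mean and, on linear axes, the bar is the SD), with the summed CPM of 8 stromal markers in the last panel; P4ha2 and the markers have log axes. Ndrg1 is lower in both Lyz2-Cre-Hdac3f/f groups than in the Hdac3f/f group of the same treatment, and P4ha2 and the stromal markers are low in the same groups.

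P4ha2, another collagen prolyl hydroxylase subunit, had 4.89, 5.66 and 3.83 CPM in KL, 18.2, 18.9 and 28.5 in L, 0.729, 3.87 and 1.79 in KC and 15.9, 4.96 and 6.95 in C. The Lyz2-Cre-Hdac3f/f groups lay below the Hdac3f/f groups of the same treatment without overlap. Markers of stromal cells moved with it: the summed CPM of 8 of them (Col1a1, Col1a2, Col3a1, Dcn, Lum, Pdgfra, Pdgfrb and Thy1) was 53.6, 59.9 and 74.1 in KL, 817.8, 1159.2 and 1697.9 in L, 21.2, 132.8 and 46.3 in KC and 1354.3, 284.5 and 447.6 in C. None of the 8 was at 0 in a whole group. C1 was highest among the C libraries, KC2 among the KC libraries and L3 among the L libraries, in both P4ha2 and the marker sum. In KL the order differed, as KL3 had the highest marker sum (74.1) and the lowest P4ha2 (3.83). The part of the markers in the P4ha2 result was not tested. For Ndrg1, which had 26.2 CPM in C1 and 12.5 in KC2, the library of highest marker sum was the lowest of C and the highest of KC. The part of the markers in the Ndrg1 result was not tested either. The call of P4ha2 between untreated groups was lost without KC1 (-1.71, adjusted p = 0.0523) or KC3 (-2.0, 0.072), and its LPS rise in Hdac3f/f cells (1.23 ± 0.45, adjusted p = 0.0312) without C2 (0.94, 0.112), C3 (1.07, 0.0946) or L3 (0.99, 0.121).

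The third question is whether the LPS response itself depends on genotype, which the interaction (response to LPS of KL over KC less that of L over C) tests. Of the 38 genes, 2 had a higher and 6 a lower response in Lyz2-Cre-Hdac3f/f cells, against 2.58% and 5.54% of all tested genes. The 6 were Slc2a6 (-2.19 ± 0.24, adjusted p = 0.000469), Hk1 (-0.75 ± 0.14, adjusted p = 0.00675), Hk3 (-1.21 ± 0.25, adjusted p = 0.0112), Eno2 (-1.51 ± 0.33, adjusted p = 0.0148), Pfkfb3 (-0.79 ± 0.22, adjusted p = 0.041) and Pfkl (-0.44 ± 0.12, adjusted p = 0.0493). The 2 were Bnip3 (0.87 ± 0.21, adjusted p = 0.0245) and Gpi1 (0.49 ± 0.13, adjusted p = 0.0403). For Slc2a6, Hk1, Hk3 and Eno2 the smaller response came with a lower level in KL than in L. For Slc2a6 the untreated level was also higher in KC than in C (1.09, against -1.11 for KL over L). For Pfkl and Pfkfb3 the untreated level was higher in KC than in C and the level with LPS was not called. The calls of Slc2a6, Hk1, Hk3 and Eno2 held with any 1 library left out and with a replicate block, which ended those of Gpi1 (adjusted p = 0.0546), Pfkfb3 (0.058) and Pfkl (0.0648). Those of the others did not: Bnip3 was lost without C2, KC2, KC3, KL1 or KL2 (adjusted p between 0.0567 and 0.0618), Gpi1 without C2, C3, L3, KL1, KL2 or any KC library (between 0.0637 and 0.109), Pfkfb3 without C2, C3, L1, L3, KL1, KL3 or any KC library (between 0.056 and 0.125) and Pfkl without any library other than L1 (between 0.053 and 0.144). Without KL1, L2 and KC3, Slc2a6 kept its call (-1.89, adjusted p = 0.018), and Hk1 (-0.71, adjusted p = 0.0957), Hk3 (-1.08, 0.137) and Eno2 (-1.60, 0.0809) did not, nor did Bnip3, Gpi1, Pfkfb3 and Pfkl (adjusted p between 0.0809 and 0.216).

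**Figure D3:**
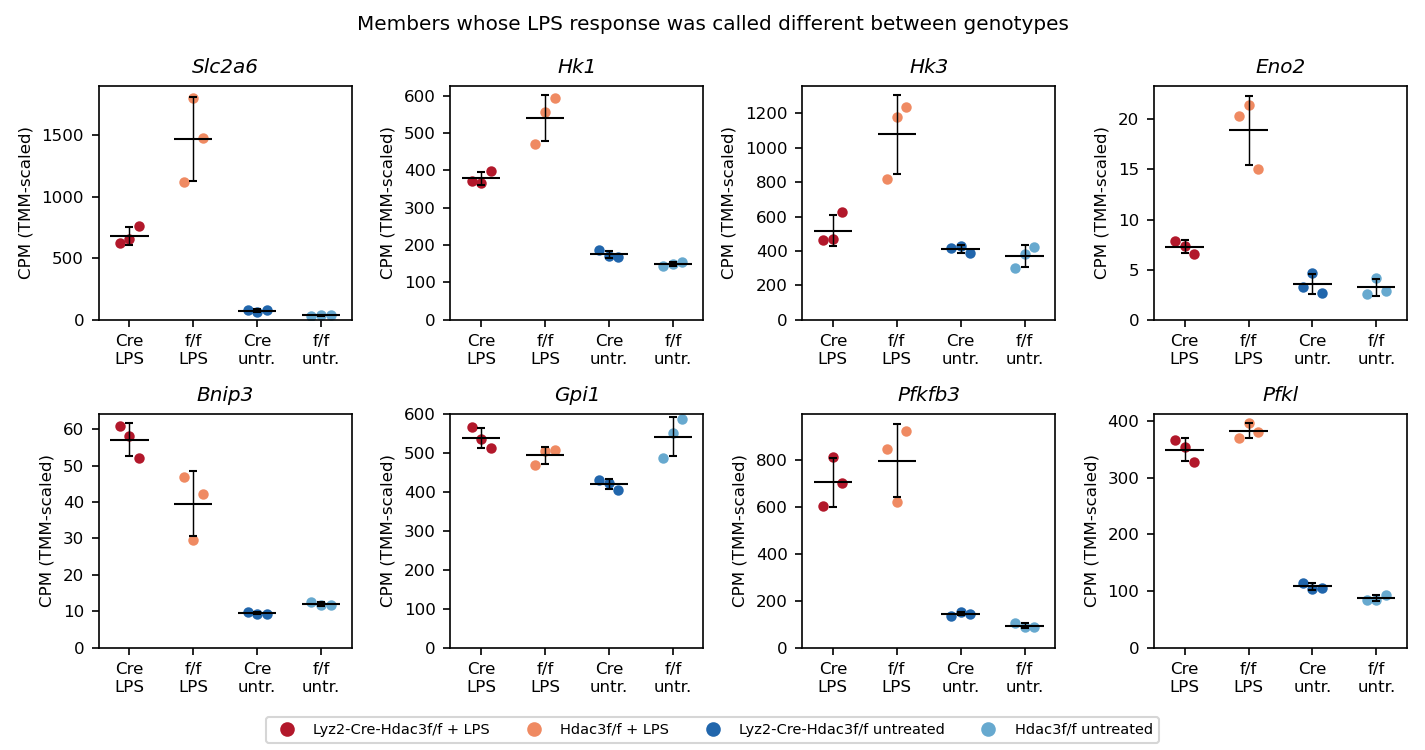
CPM (y axis, from 0) of the 8 genes whose LPS response was called different between genotypes, in each of 4 groups; points are libraries, the line is the mean and the bar the SD of 3. Slc2a6, Hk1, Hk3 and Eno2 are lower in LPS-treated Lyz2-Cre-Hdac3f/f than in LPS-treated Hdac3f/f cells in every library, and Bnip3 is higher.

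Levels between genes were compared on the deposited FPKM, which is per deposited gene length. Ranks between genes depend on that length, which was 5379 bases for Eno1 and 2244 for Pgk1. Pkm and Aldoa were the highest of the 38 in every group: Pkm averaged 651.8 ± 11.6 FPKM in KL, 681.7 ± 104.4 in L, 347.3 ± 11.8 in KC and 380.8 ± 66.4 in C (SD, n = 3), and Aldoa averaged 650.7 ± 32.1 in KL, 761.5 ± 93.3 in L, 289.1 ± 8.51 in KC and 331.9 ± 62.6 in C. Their ranges overlapped in KL, L and C, and Pkm lay above Aldoa in KC. Slc2a6 was the eighth in KL at 209.8 ± 24.3 FPKM and the third in L at 467.5 ± 113.4, where its range overlapped that of the next gene, Ldha. Pgk1, Ldha, Pgam1, Tpi1 and Eno1 filled the ranks from 3 to 7 in KL, at 293.8 to 367.3 FPKM. At the low end stood Aldoc and P4ha2 in KL (0.595 and 0.758 FPKM) and Ankrd37 in L, KC and C (0.813, 0.140 and 0.296 FPKM).

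**Figure D4:**
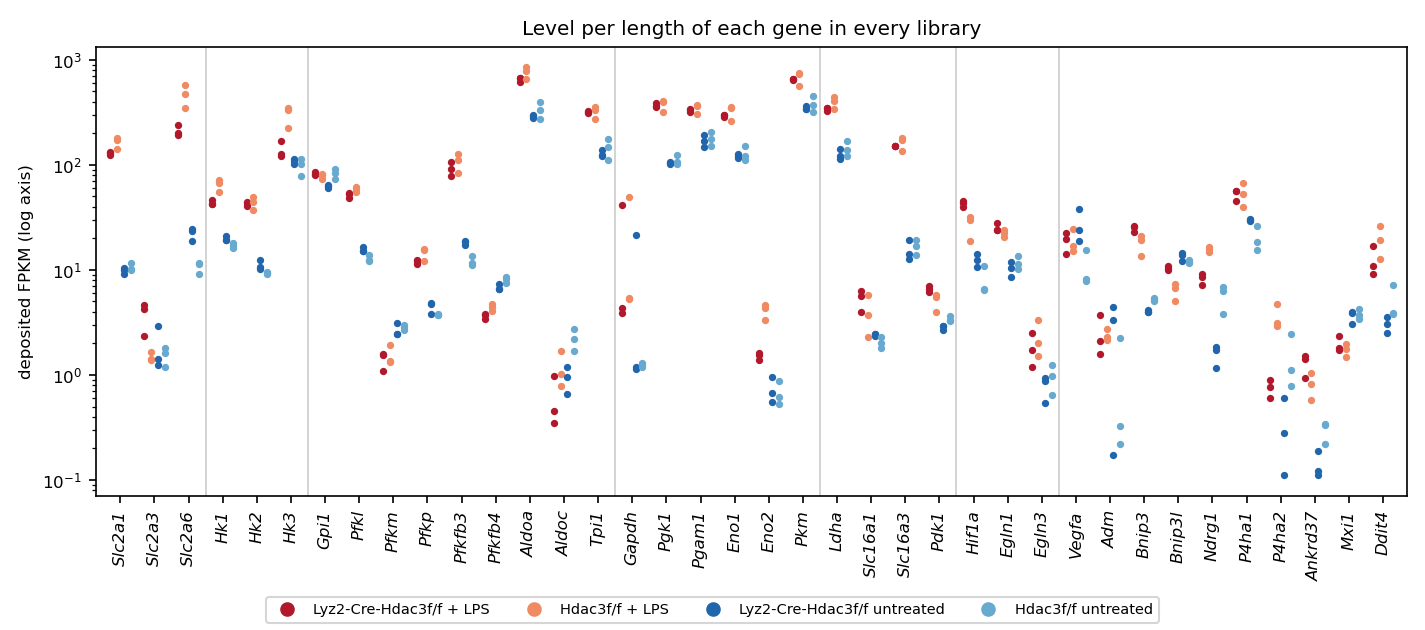
Deposited FPKM (y axis, log scale) of each of the 38 genes (x axis, by role) in every library, coloured by group. Aldoa, Tpi1, Pgk1, Pgam1, Eno1, Pkm and Ldha are among the highest in every group, while Aldoc, Gapdh and Eno2, which stand between them, are lower. Gapdh has 1 library far above the others in each of 3 groups, and Slc2a6 spans a wide range between untreated and LPS-treated cells.

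The share of each gene in the summed FPKM of its family compares the genes per deposited gene length. That length was 8532 bases for Hk1, 5969 for Hk2 and 3682 for Hk3, and the isoforms expressed were not examined. The shares would differ with other lengths. Slc2a6 made up 61.3 ± 2.28% of the summed FPKM of the 3 transporters in KL and 73.4 ± 3.09% in L, against 65.6 ± 3.20% in KC and 46.8 ± 2.21% in C (SD, n = 3). Slc2a1 held nearly as much as Slc2a6 in C, at 46.5 ± 3.09%. Hk3 held the largest share of the hexokinase FPKM in every group, at 61.4 ± 3.98% in KL, 73.1 ± 3.62% in L, 77.7 ± 1.24% in KC and 78.6 ± 2.60% in C. The share of Hk2 was 19.1 ± 2.78% in KL and 11.0 ± 2.64% in L, with ranges that did not overlap. Pfkfb3 held 96.1 ± 0.735% of its pair with Pfkfb4 in KL and 95.9 ± 1.14% in L, against 72.7 ± 1.49% in KC and 59.8 ± 3.96% in C. In the mitophagy pair, Bnip3 held 70.4 ± 0.590% in KL and 73.5 ± 0.729% in L, while Bnip3l held most of it without LPS, with Bnip3 at 23.2 ± 1.40% in KC and 30.4 ± 1.20% in C. No test was run on these shares.

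**Figure D5:**
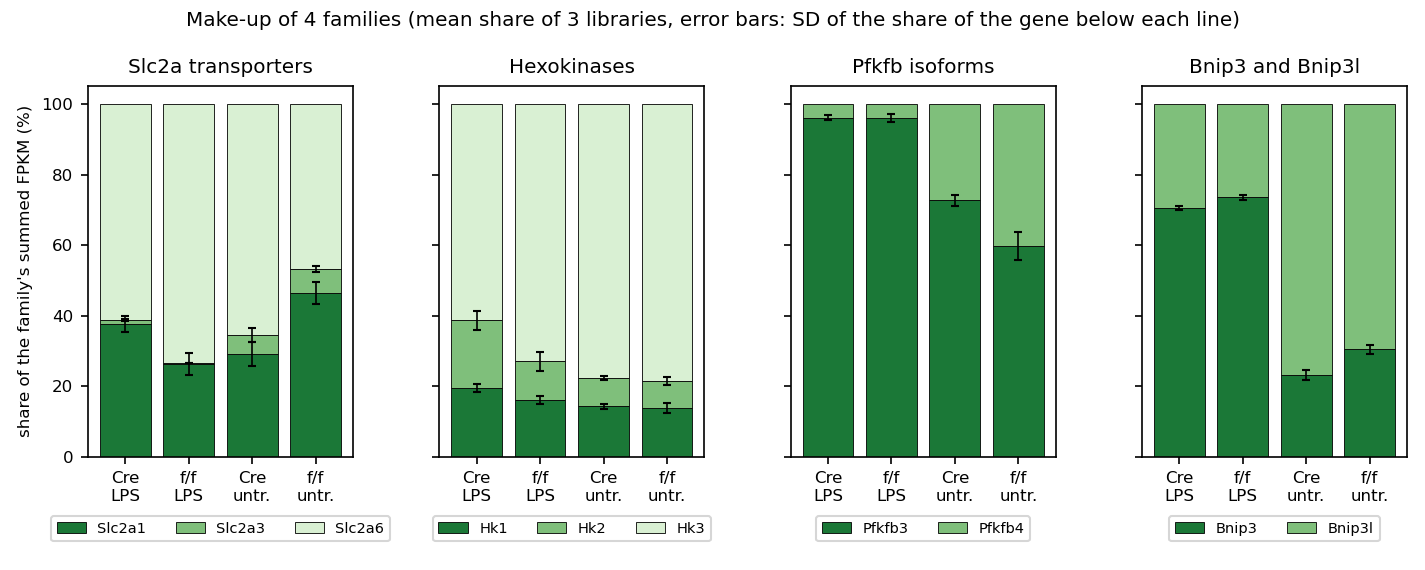
Share (y axis, %) of each gene in the summed FPKM of its family for 4 families in 4 groups; stacked bars are means of 3 libraries and error bars the SD of the share of the gene below each line. The Hk3 segment is smallest in LPS-treated Lyz2-Cre-Hdac3f/f cells at 61.4%, and the Bnip3 segment covers over 70% of its pair in both LPS groups and at most 30.4% in the untreated groups.

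Other genes of the same pathways were taken from fixed lists, in which Gys1, Gbe1, Pgm1 and Pfkfb2 stand in 2 lists each. Their counts are to be read against the 25.2% higher and 27.7% lower of all tested genes in Lyz2-Cre-Hdac3f/f cells and the 28.0% and 32.1% in Hdac3f/f cells; the counts of pyruvate dehydrogenase and pentose phosphate genes are near those shares, so nothing is read from them. With 1 library left out, the genes that rose in Hdac3f/f cells became 1 of the glycolytic enzymes (without C1, C2, L1 or L3) and 1 of the pyruvate dehydrogenase genes (without C1 or L1), and 2 of the transport genes without C1; 1 oxygen-sensing gene was then lower in Lyz2-Cre-Hdac3f/f cells (without C1 or KC1). Of 13 other glycolytic enzymes, LPS raised 2 and lowered 8 in each genotype, with a median log2 fold change of -1.15 in Lyz2-Cre-Hdac3f/f and -0.77 in Hdac3f/f cells. Gpd2, the mitochondrial glycerol phosphate dehydrogenase, rose by 2.72 ± 0.16 in Lyz2-Cre-Hdac3f/f and 3.13 ± 0.17 in Hdac3f/f cells, and its cytosolic partner Gpd1 fell, at -4.83 ± 0.44 in Lyz2-Cre-Hdac3f/f and -5.39 ± 0.42 in Hdac3f/f cells. The ADP-dependent glucokinase Adpgk fell too, at -0.85 ± 0.10 in Lyz2-Cre-Hdac3f/f and -0.77 ± 0.10 in Hdac3f/f cells. Of 7 other transport genes, 2 rose and 3 fell in Lyz2-Cre-Hdac3f/f cells and 1 rose and 3 fell in Hdac3f/f cells. The 3 that fell were the transporters Slc2a8, Slc2a9 and Slc16a7, with log2 fold changes of -2.23, -1.82 and -2.66 in Lyz2-Cre-Hdac3f/f cells and -2.90, -1.48 and -2.61 in Hdac3f/f cells.

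Of 10 genes of pyruvate dehydrogenase and its regulators, 2 rose and 4 fell with LPS in each genotype. The log2 fold change of the kinase Pdk2 was -2.67 ± 0.19 in Lyz2-Cre-Hdac3f/f and -3.44 ± 0.20 in Hdac3f/f cells, and that of the phosphatase Pdp1 -2.58 ± 0.16 in Lyz2-Cre-Hdac3f/f and -2.61 ± 0.16 in Hdac3f/f cells. Of 9 pentose phosphate genes, 3 rose in each genotype and 2 fell in Lyz2-Cre-Hdac3f/f and 3 in Hdac3f/f cells. The dehydrogenase Pgd changed by 1.61 and the sedoheptulose kinase Shpk by -2.42 in Lyz2-Cre-Hdac3f/f cells, against 1.24 and -2.83 in Hdac3f/f cells (log2). Of 11 glycogen genes, 6 rose and 2 fell in Lyz2-Cre-Hdac3f/f cells and 4 rose and 4 fell in Hdac3f/f cells, which became 4 and 3, and 2 and 6, with library totals. Between LPS-treated groups, 6 of the 11 were higher in KL and the other 5 did not pass, where 15.7% of all tested genes were higher, and 8 were higher with library totals. That count was 2 without L2, 3 without L3 or KL1, and 1 without KL1, L2 and KC3. In the interaction, where 2.58% of all tested genes had a larger response in Lyz2-Cre-Hdac3f/f cells, 3 of the 11 did: the synthase Gys1 (0.89 ± 0.16, adjusted p = 0.00496), the phosphorylase Pygl (0.72 ± 0.19, adjusted p = 0.0358) and the branching enzyme Gbe1 (0.66 ± 0.19, adjusted p = 0.048). The 3 became 1 without C2, C3, L2, KL1, KL2 or any KC library, 2 without C1 or L3, 5 without L1 and 0 without KL1, L2 and KC3. Gys1 averaged 66.2 ± 6.57 CPM in KL, 43.9 ± 4.08 in L, 15 ± 0.852 in KC and 18.5 ± 0.831 in C.

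Of 12 other genes of HIF subunits and oxygen sensing, 5 rose and 7 did not pass in Lyz2-Cre-Hdac3f/f cells, and 6 rose and 6 did not pass in Hdac3f/f cells. With library totals as the only scaling, 5 rose and 3 fell in Lyz2-Cre-Hdac3f/f cells and 4 rose and 4 fell in Hdac3f/f cells. The ubiquitin ligase gene Siah2, whose product degrades prolyl hydroxylases, rose by 1.79 ± 0.17 in Lyz2-Cre-Hdac3f/f and 2.30 ± 0.17 in Hdac3f/f cells. Vhl, the ligase subunit that recognises hydroxylated HIF, rose by 1.13 ± 0.13 in Lyz2-Cre-Hdac3f/f and 1.27 ± 0.13 in Hdac3f/f cells. Of 35 other hypoxia-induced genes tested, 17 rose and 10 fell in Lyz2-Cre-Hdac3f/f cells, and 17 rose and 11 fell in Hdac3f/f cells, which became 15 and 12, and 9 and 15, with library totals; the shares that fell are near those of all tested genes. Nos2, the inducible nitric oxide synthase, had the largest change of the 35 and rose by 8.63 ± 0.42 in Lyz2-Cre-Hdac3f/f and 11.59 ± 0.49 in Hdac3f/f cells (log2). It averaged 1899 ± 409.4 CPM in KL and 2394 ± 877.4 in L, against 4.78 ± 1.26 in KC and 0.748 ± 0.571 in C. The GTPase Rab20 had a smaller response in Lyz2-Cre-Hdac3f/f cells (-1.57 ± 0.21, adjusted p = 0.00125). The transferrin receptor Tfrc fell in both, at -1.01 ± 0.15 in Lyz2-Cre-Hdac3f/f and -2.39 ± 0.15 in Hdac3f/f cells, a difference of 1.38 ± 0.21 (adjusted p = 0.00229). Of 11 MYC-network and glucose-responsive factors, 5 rose and 3 fell in Lyz2-Cre-Hdac3f/f cells and 6 rose and 4 fell in Hdac3f/f cells, which became 4 and 5, and 3 and 5, with library totals. The share that fell is near that of all tested genes. The MYC antagonists Mxd1 and Mxd4 changed by 1.87 ± 0.19 and -1.91 ± 0.12 in Lyz2-Cre-Hdac3f/f cells and by 3.61 ± 0.20 and -2.82 ± 0.12 in Hdac3f/f cells. The interaction was called for Mxd1 (-1.74 ± 0.26, adjusted p = 0.00213), Mxd4 (0.91 ± 0.16, adjusted p = 0.00501) and Max (-0.98 ± 0.17, adjusted p = 0.00551).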

How the data were processed

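RNA sequencing counts of 12 libraries in 4 groups of 3 were used. Whole-number counts and FPKM per gene were deposited by the authors; the deposited FPKM equals the count per kilobase of the deposited gene length, divided by a library size proportional to the DESeq2 size factor. Reads were mapped with TopHat2 to mm10, per the submitters' processing notes. The counting tool, its strand setting and the annotation release are not given in the sources used here. Of the 38 gene identifiers all 38 are in GENCODE M21, 36 with the same coordinates. Aldoa has 2 rows, and the row with 301067 counts was used in place of the one with 70.

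Counts were tested in R 4.3.3 with edgeR 4.0.16: filterByExpr left 14286 genes, TMM factors ran from 0.716 to 1.26, and one quasi-likelihood fit (glmQLFit, glmQLFTest) with a coefficient per group gave 5 contrasts. A gene was called at a Benjamini-Hochberg adjusted p under 0.05 over all tested genes. SE is the absolute log2 fold change divided by the square root of F. Levels are CPM over TMM-scaled sizes, and the limit that a count of 0 allows covers counting error only. The fit was tested on simulated data. The alternatives were DESeq2 1.42.0 size factors and test, library totals, other filters, the groups of the contrast alone, a replicate block, each library left out, and 3 libraries left out. Genes given by library are every gene called in the interaction, those of largest called change per role and comparison, and Hif1a. At most 3 called genes of lowest p per pathway list are named. The 38 genes and all lists were chosen with earlier results of these data known. CPM of marker lists of other cell types were summed per library.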

Additional observations from a re-analysis of the deposited data

Results flagged for a closer look

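A test of the difference between the LPS responses of the genotypes was passed by 8 of the 38 genes. The interaction, the log2 response of KL over KC less that of L over C, was -2.19 for Slc2a6, -1.21 for Hk3, -1.51 for Eno2, -0.75 for Hk1, -0.79 for Pfkfb3 and -0.44 for Pfkl. It was 0.87 for Bnip3 and 0.49 for Gpi1. Among them, Pfkl, Gpi1 and Pfkfb3 had adjusted p-values of 0.0493, 0.0403 and 0.041, close to the threshold. Single outlying libraries were not tested in groups of 3; leaving out each library in turn is given with the results.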

How the results depend on the processing

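Of 95 results of the 38 genes that were not called, 34 were called in at least 1 setting. Of 95 called results of the 38 genes, 59 kept their direction and call in every one of 20 settings, 35 lost the call in at least 1, and 2 changed sign, both with library totals as the only scaling: Pdk1 in L over C (-0.10) and Gpi1 in KL over KC (-0.03). With that scaling the calls over all genes became 2086 higher and 8242 lower in L over C, 2109 and 6463 in KL over KC, 4465 and 1329 in KL over L, and 1134 and 448 in the interaction, where the median of all genes was 0.27. Among the 38 genes, those higher in KL than L became 13 and those with a larger response in Lyz2-Cre-Hdac3f/f cells 7, and, of the genes given by library, values that had not passed changed sign for Hk3 in KL over KC (-0.06), Pfkl (0.14), Pfkfb3 (0.08), Gapdh (0.14) and Slc16a3 (0.21) in KL over L, and Slc2a1 (0.03) and P4ha2 (0.19) in the interaction. Genes with a larger response numbered 1 with DESeq2 size factors, 5 with the DESeq2 test and 4 without a filter, and genes higher in KC than C numbered 7 without a filter. DESeq2 scaling, with either test, turned Hk2 (-0.04) and Pgk1 (-0.02) in KL over L and Slc16a3 in the interaction (-0.01). Of the other genes, library totals turned values that had not passed for Mxi1 in KC over C, for Pfkm, Pfkp, Pfkfb4, Aldoa, Pgam1, Eno1, Pkm and Ldha in KL over L, and for Pfkm, Pfkfb4, Aldoa, Eno1, Ldha and Egln3 in the interaction, DESeq2 scaling did so for Tpi1 and P4ha1 in KL over L and Pgam1 in the interaction, and the absence of a filter for Pfkm, Aldoa and Ldha in the interaction.

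Without KL1, L2 and KC3, 2 genes were higher and 1 lower in KC than C, 1 higher and 4 lower in KL than L, and 0 had a larger and 2 (Slc2a6 and Pfkp) a smaller response, of fewer libraries; over all genes 41 and 164 were called in that interaction. Of the genes given by library, values that had not passed then changed sign for Gapdh in KC over C (-0.09), Hk2 (-0.12), Pgk1 (-0.12) and Slc16a3 (0.00) in KL over L, and Aldoc (-0.52), Pgk1 (-0.04) and Hif1a (-0.16) in the interaction. Leaving out 1 library gave 1 to 6 genes higher and 1 to 4 lower in KC over C, 2 to 6 higher in KL over L, and 0 to 5 with a larger and 4 to 6 with a smaller response. Values of these genes that were not called ranged over 0 in this way for Slc2a3 in L over C (-0.26 to 0.03) and KC over C (-0.19 to 0.51), and for Gapdh in KL over KC (-0.96 to 3.81), KC over C (-0.06 to 3.20) and KL over L (-2.24 to 1.69). The same held in KC over C for Eno2 (-0.11 to 0.36), Pgk1 (-0.11 to 0.00) and Slc16a3 (-0.29 to 0.04), and in KL over L for Hk2 (-0.10 to 0.11), Pgk1 (-0.08 to 0.09) and Slc16a3 (-0.18 to 0.01). In the interaction it held for Slc16a3 (-0.11 to 0.22), Hif1a (-0.26 to 0.21), Ddit4 (-0.30 to 0.38), P4ha2 (-0.72 to 0.69) and Aldoc (-0.24 to 0.68). The causes were not tested.

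Whether equal replicate numbers pair the libraries is not known. Of 18 same-numbered pairs 5 had a correlation of deviations over 0.1, the range was -0.4 to 0.22, and 4 of 12 libraries correlated best with their own number. Within a genotype the correlations were 0.2, 0.1 and 0 for C with L, and 0.13, 0.07 and 0.01 for KC with KL. Deviations in groups of 3 libraries cannot settle this, so no conclusion on pairing is drawn. With a replicate block, 2 genes had a larger and 4 a smaller response, 5 were higher and 3 lower in KC than C, and 5 higher and 7 lower in KL than L. In the block the interaction lost the calls of Gpi1, Pfkfb3 and Pfkl and gained that of Pdk1, and KC over C lost Pfkl and Aldoc and gained Hif1a and P4ha1. Genes of few counts, such as Ankrd37, Aldoc and Adm, are limited by depth.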
